A study of Mus musculus with 24 samples.

Results

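The TAM family takes its name from 3 receptor tyrosine kinases, Tyro3, Axl and Mertk. These receptors were followed here together with 3 secreted proteins that bridge phosphatidylserine on a dying cell to a receptor on the cell that engulfs it, Gas6, Pros1 (protein S) and Mfge8. The 6 genes were chosen by name, as a receptor and ligand family, with earlier results of these data known. They are 6 of the 46983 gene identifiers in each count file, and all 6 passed the filter on low counts, as did 14599 genes in all.

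The data are counts of sequenced 3′ transcript ends in cortex of C57Black/6 mice, with 24 libraries in 4 groups of 6. Mice of 3 or 18 months had the middle cerebral artery permanently closed by coagulation and then cut (middle cerebral artery occlusion, MCAO), a surgical model of ischaemic stroke with small infarcts in parietal cortex, and tissue was taken 3 days later. Control cortex came from intact mice of the same 2 ages that had no operation, so an MCAO comparison also holds isoflurane anaesthesia, craniotomy and opening of the dura. The labels name no transgene or further agent for any group, and each library is whole tissue, in which fewer cells of a type and less RNA per cell cannot be told apart.

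As background, cells that die in an infarct expose phosphatidylserine on their surface. Gas6 and protein S carry vitamin K-dependent Gla domains that bind this lipid, and their other end engages TAM receptors: Gas6 binds Axl, Mertk and Tyro3, and protein S binds Mertk and Tyro3 but is best known as a plasma cofactor in anticoagulation. Mfge8 binds the same lipid but hands the cell to integrins, not to TAM receptors. In brain, Mertk and Axl are known from microglia, macrophages and vessels, Tyro3 from cortical neurons, and Mfge8 from astrocytes and microglia. Engaged TAM receptors drive engulfment and restrain cytokine signalling.

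Library depth ran from 3.30 to 13.1 M counts on genes, with a median of 5.15 M (M standing for mega), which puts 51 to 736 counts of Axl, the gene with the fewest, in a library. The tissue held its labelled cells: all 10 neuronal markers examined, such as Snap25 and Syt1, passed the filter, with a summed level of 9292 to 11737 counts per 1 M counts (CPM) in control libraries and 4224 to 7382 after MCAO. Libraries A and C of the 3-month MCAO group stood apart in earlier work on these data, and library A is the deepest of all. Their summed level of 8 microglial markers was 1709 and 1433 CPM, against 692 to 903 CPM in the other 4 libraries of the group, and 1419 CPM of choroid plexus markers lay in library C, against 10.3 to 25.0 CPM in those 4. Choroid plexus markers also reached 786 CPM in a control library of 3 months, where the lowest of that group was 1.81 CPM. This control was left out only when each library was left out in turn. Libraries C and F of MCAO at 18 months held erythrocyte genes at up to 1259.7 CPM. Calls of named genes that are lost without either pair of MCAO libraries are given, and several values of the 6 genes are also given without them. CPM are scaled by trimmed means (TMM), ± on a CPM is the SD over 6 animals and ± on a log2 value its standard error (SE), and adjusted p-values are Benjamini-Hochberg values of edgeR's quasi-likelihood test over all 14599 genes, with a threshold of 0.05.

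The genes lie on 4 chromosomes of GRCm38, in the GENCODE M21 annotation. Axl (ENSMUSG00000002602.16) spans chr7:25757273-25788705 and Mfge8 (ENSMUSG00000030605.15) chr7:79133768-79149060, both on the minus strand. Mertk (ENSMUSG00000014361.5) spans chr2:128698956-128802894 and Tyro3 (ENSMUSG00000027298.17) chr2:119797733-119818104, both on the plus strand. Gas6 spans chr8:13465374-13494490 on the minus strand, with the identifier ENSMUSG00000031451.5 in the count files, and Pros1 (ENSMUSG00000022912.8) spans chr16:62854307-62929346 on the plus strand. Within Gas6, 3100 bp at the 3′ end are shared with Tmem255b on the opposite strand, and no strand setting is given in the sources used here, so Gas6 counts are uncertain to that extent. Tmem255b had 0 to 15 counts in a library, against 594 to 2459 counts of Gas6. Mertk overlaps the antisense gene Gm14011, which had no count, and the small nucleolar RNA Gm23172, which had 0 to 3 counts.

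The sequence before the start site is shown for Pros1 and Axl, which rose most after MCAO, and for Tyro3, which fell. Each is the 250 bases before the RefSeq start site, 5′ to 3′ on the gene's strand, on GRCm38.p6, and capitals mark GC boxes. The Pros1 window is chr16:62854057-62854306 on the plus strand, the Axl window chr7:25788734-25788983 on the minus strand, and the Tyro3 window chr2:119799264-119799513 on the plus strand. The Tyro3 window lies downstream of the first base that GENCODE gives to the gene.
Pros1: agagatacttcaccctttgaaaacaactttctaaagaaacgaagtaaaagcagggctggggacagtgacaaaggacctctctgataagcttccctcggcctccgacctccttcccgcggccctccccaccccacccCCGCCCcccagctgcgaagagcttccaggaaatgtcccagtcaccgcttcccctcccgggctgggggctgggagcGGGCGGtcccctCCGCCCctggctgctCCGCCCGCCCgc
Axl: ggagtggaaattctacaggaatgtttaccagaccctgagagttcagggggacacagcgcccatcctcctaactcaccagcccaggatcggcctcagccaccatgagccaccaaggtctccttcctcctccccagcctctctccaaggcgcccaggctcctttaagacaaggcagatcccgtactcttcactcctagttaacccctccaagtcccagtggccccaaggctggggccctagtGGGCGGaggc
Tyro3: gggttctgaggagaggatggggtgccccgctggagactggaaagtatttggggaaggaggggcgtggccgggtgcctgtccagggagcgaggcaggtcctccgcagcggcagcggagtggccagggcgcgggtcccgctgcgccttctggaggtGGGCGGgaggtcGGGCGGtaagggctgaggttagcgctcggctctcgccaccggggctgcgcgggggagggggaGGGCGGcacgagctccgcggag
The 3 windows differ from each other in GC content, at 64.4% for Pros1, 60.0% for Axl and 73.2% for Tyro3. Over 27025 RefSeq windows of the same length, with 1 window per gene, the median was 52.0%.

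4 motifs were searched on both strands in the windows of the 6 genes, and no match of a motif overlapped a match of another. The GC box, spelled GGGCGG, is bound by Sp1-type factors and was in 32.9% of all windows. Every one of the 6 genes held it, with 5 matches in Pros1, 4 each in Gas6 and Mfge8, 3 each in Mertk and Tyro3 and 1 in Axl. The nearest match lay 3 to 8 bases before the start of Pros1 and 5 to 10 bases before that of Axl. The 2 matches of Pros1 closest to the start overlap each other. The core of the interferon-stimulated response element, GAAANNGAA, the AP-1 site TGANTCA and the E-box CACGTG were in 7.16%, 6.87% and 6.05% of all windows, and in none of the 6. A match is a description of letters in these windows and does not show binding.

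After MCAO, 2 receptors were higher and 1 was lower, at each age, and 1 of the 3 ligands was higher. Axl, Mertk and Pros1 passed the test as higher and Tyro3 as lower, while Gas6 and Mfge8 did not pass at either age. At 3 months 20.1% of all tested genes were called higher and 17.3% lower, and at 18 months 23.7% and 21.5%. Against that background 3 of the 6 were called higher and 1 lower at each age. The median log2 fold change of the 6 genes was 0.26 at 3 months, against -0.04 over all genes tested, and 0.43 at 18 months, against -0.03. The groups did not overlap for 2 of the 6 genes at each age, Axl and Pros1, where 18.9% of all genes at 3 months and 27.0% at 18 months did not overlap.

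**Figure D1:**
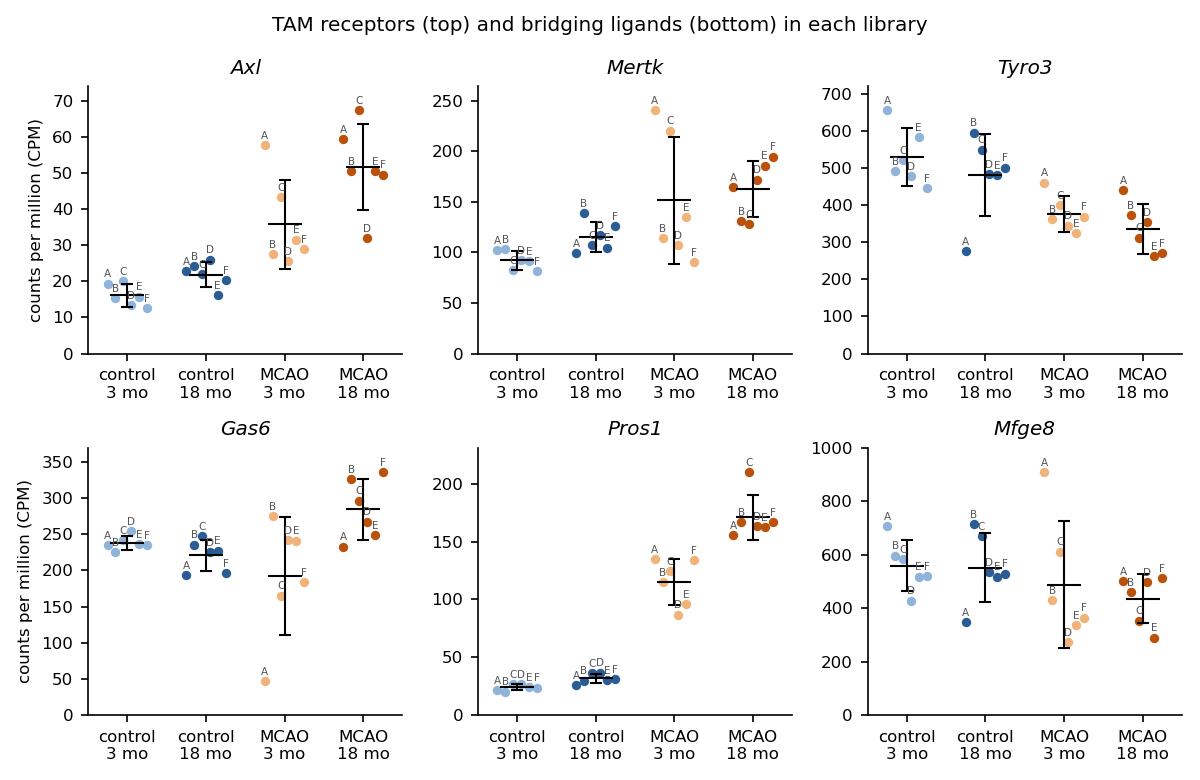
Levels in CPM (vertical axis, linear, from 0) of the 3 TAM receptors (top row) and 3 bridging ligands (bottom row) in each of 24 libraries, by group (horizontal axis; mo, months). Points carry the library letter, and bars are the mean and SD of 6 animals. Pros1 separates control from MCAO and also the 2 MCAO ages, and library A of MCAO at 3 months is the lowest for Gas6 and the highest of its group for Axl, Mertk, Tyro3, Pros1 and Mfge8.

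Axl, the receptor that Gas6 engages and that inflamed macrophages are known to carry, rose at both ages. Its level ran from 12.5 CPM through a median of 15.6 CPM to 20.1 CPM in controls of 3 months, and from 25.6 through 30.2 to 57.6 CPM after MCAO at that age. In controls of 18 months it ran from 16.1 through 22.3 to 26.0 CPM, and after MCAO from 31.9 through 50.5 to 67.3 CPM. Every MCAO library lay above every control library of its age. The means were 16.1 ± 3.09 and 35.7 ± 12.4 CPM at 3 months, and 21.8 ± 3.42 and 51.5 ± 11.8 CPM at 18 months (SD, n = 6). Axl rose 2.25-fold at 3 months (log2 fold change 1.17 ± 0.19, adjusted p = 2.66e-05, edgeR) and 2.36-fold at 18 months (1.24 ± 0.19, adjusted p = 4.89e-06, edgeR). Without libraries A and C of the 3-month MCAO group the rise at 3 months was 1.77-fold, with an adjusted p of 0.000319 in edgeR. Without libraries C and F of the 18-month MCAO group the rise at 18 months was 2.20-fold (1.14, adjusted p = 9.36e-05, edgeR).

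Mertk, the receptor through which macrophages and microglia take up dying cells, rose less, and its groups overlapped. Levels in controls of 3 months ran from 81.3 through 91.5 to 103 CPM, and after MCAO from 90.4 through 125 to 240.4 CPM. At 18 months they ran from 99.2 through 112 to 139 CPM in controls and from 128 through 168 to 195 CPM after MCAO. The high values at 3 months were 240.4 CPM in library A and 220.3 CPM in library C, with the other 4 libraries at 90.4 to 135 CPM. Mertk rose 1.65-fold at 3 months (0.72 ± 0.18, adjusted p = 0.00281, edgeR) and 1.41-fold at 18 months (0.49 ± 0.18, adjusted p = 0.0280, edgeR). Neither call was firm. At 3 months it was lost without libraries A and C (log2 fold change 0.28, adjusted p = 0.0907, edgeR), the libraries with the most microglial marker RNA, whose part in the Mertk value was not tested beyond leaving them out. At 18 months it was lost without libraries C and F of MCAO (0.50, adjusted p = 0.0526, edgeR) and without any of 5 libraries left out in turn, A, C or E of the controls and E or F of MCAO, with adjusted p-values of 0.0526 to 0.0671.

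Tyro3, the TAM receptor best known from cortical neurons, fell. Levels ran from 445 through 506 to 655 CPM in controls of 3 months and from 324 through 365 to 460.3 CPM after MCAO. At 18 months they ran from 275 through 492 to 595 CPM in controls and from 261 through 333 to 441 CPM after MCAO. The groups overlapped at both ages. At 3 months the highest MCAO library, A, stood above the lowest control, and at 18 months a control library, A at 275 CPM, lay among the MCAO values while the other 5 controls were at 481 CPM or more. The means were 529 ± 77.5 and 377 ± 48.2 CPM at 3 months, and 481 ± 110.0 and 335 ± 67.8 CPM at 18 months (SD, n = 6). Tyro3 fell 1.40-fold at 3 months (-0.49 ± 0.15, adjusted p = 0.0104, edgeR) and 1.43-fold at 18 months (-0.52 ± 0.15, adjusted p = 0.00523, edgeR). Without libraries A and C of the 3-month MCAO group the fall at 3 months was 1.51-fold (-0.60, adjusted p = 0.00515, edgeR). The 18-month call came close to the threshold without libraries C and F of MCAO (-0.43, adjusted p = 0.0464, edgeR). So did the 3-month call with scaling by totals (-0.36, adjusted p = 0.0482, edgeR). Neuronal markers were also lower after MCAO: 6 of 10 were called lower at 3 months and 8 of 10 at 18 months, and none higher. Library A of MCAO at 3 months had the highest Tyro3 level of its group and the lowest summed neuronal markers, 5525 CPM. Library A of the 18-month controls had the lowest Tyro3 level of its group and the highest summed neuronal markers of all controls, 11737 CPM. The part of neurons in the lower Tyro3 level was not tested.

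Among the ligands, Pros1 had the largest change of the 6 genes. Its level ran from 20.3 through 24.1 to 27.03 CPM in controls of 3 months and from 86.8 through 119 to 135 CPM after MCAO. At 18 months it ran from 25.8 through 30.5 to 36.7 CPM in controls and from 155 through 165 to 210.4 CPM after MCAO. The lowest MCAO library held 3.21 times the level of the highest control library at 3 months and 4.24 times at 18 months. The means were 24.03 ± 2.72 and 115 ± 19.97 CPM at 3 months and 31.6 ± 4.24 and 171 ± 19.8 CPM at 18 months (SD, n = 6). Pros1 rose 4.78-fold at 3 months (2.26 ± 0.12, adjusted p = 3.31e-13, edgeR) and 5.42-fold at 18 months (2.44 ± 0.12, adjusted p = 2.77e-14, edgeR). Without libraries A and C the rise at 3 months was 4.47-fold (adjusted p = 8.02e-14, edgeR).

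Gas6, the ligand shared by all 3 receptors, passed the test at neither age. Levels ran from 225 through 236 to 255 CPM in controls of 3 months, the tightest group of the gene, and from 46.5 through 212 to 275 CPM after MCAO. At 18 months they ran from 194 through 226 to 248 CPM in controls and from 233 through 282 to 336 CPM after MCAO. The value of 46.5 CPM is library A of MCAO at 3 months, with 594 counts, and the next lowest of that group was library C at 165 CPM. The log2 fold change was -0.31 ± 0.23 at 3 months (adjusted p = 0.299, edgeR) and 0.37 ± 0.23 at 18 months (adjusted p = 0.201, edgeR). Without libraries A and C the value at 3 months was -0.02 (adjusted p = 0.922, edgeR). At 18 months the value was then still 0.36 but passed the test (adjusted p = 0.00252, edgeR), as it did without library A alone (adjusted p = 0.00679) and with only the 18-month groups in the model (0.39, adjusted p = 0.00456). In the main model all groups share an estimate of the spread, through which 3-month libraries enter the 18-month test. Without libraries C and F of MCAO at 18 months the 18-month value of Gas6 was 0.28 (adjusted p = 0.427, edgeR).

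Mfge8, the bridge to integrins, had values that were wide apart after MCAO at 3 months. It ran from 428 through 552 to 707 CPM in controls of 3 months and from 272 through 397 to 909 CPM after MCAO. At 18 months it ran from 346 through 531 to 715 CPM in controls and from 289 through 478 to 511 CPM after MCAO. Library A held the 909 CPM and library C the next highest value, 611 CPM. The log2 fold change was -0.20 ± 0.23 at 3 months (adjusted p = 0.528, edgeR) and -0.34 ± 0.23 at 18 months (adjusted p = 0.228, edgeR). Without libraries A and C, Mfge8 was called lower at 3 months (1.59-fold, log2 fold change -0.67, adjusted p = 0.00586, edgeR).

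**Figure D2:**
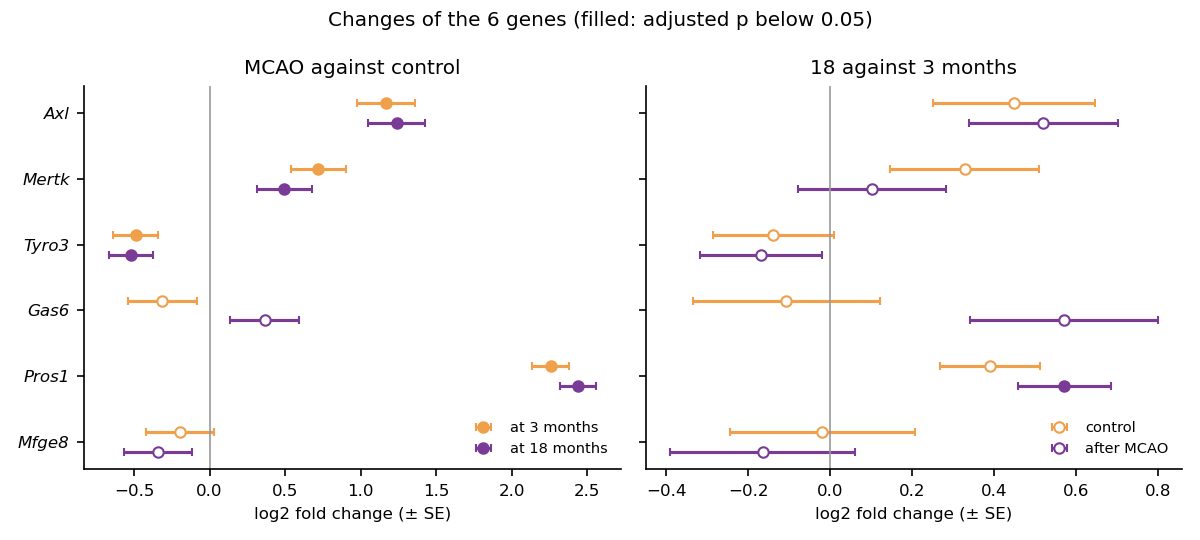
Log2 fold change with its standard error (horizontal axis) of each gene (vertical axis), for MCAO against control at each age (left) and for the 18-month against the 3-month mice, control or MCAO (right), from edgeR over all 24 libraries. Filled points passed an adjusted p of 0.05: Axl, Mertk, Tyro3 and Pros1 on the left, and Pros1 after MCAO on the right.

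Whether the genes differed with age was asked in each condition. In control cortex none of the 6 was called in edgeR, where 0.603% of all genes were. At an unadjusted p under 0.05 there were 2, Pros1 with a log2 difference, 18 minus 3 months, of 0.39 ± 0.12 (adjusted p = 0.202, edgeR) and Axl with 0.45 ± 0.20 (adjusted p = 0.465, edgeR), and DESeq2 called none. All 6 genes overlapped between the control ages, and 2.01% of all genes did not. The median of the 6 was 0.15, against 0.01 over all genes.

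After MCAO, 1 of the 6 was called between the ages, Pros1, where 10.9% of all genes were. It was 1.49-fold higher at 18 than at 3 months (0.57 ± 0.11, adjusted p = 0.00161, edgeR), and its lowest value at 18 months, 155 CPM, lay above its highest at 3 months, 135 CPM. The MCAO ages did not overlap for 3.74% of all genes. The difference was 1.59-fold without libraries A and C of the 3-month MCAO group (adjusted p = 0.000316, edgeR), and all 34 alternatives kept the call, with log2 differences of 0.49 to 0.77. Axl was 0.52 ± 0.18 higher on the log2 scale (adjusted p = 0.0650, edgeR) and Gas6 0.57 ± 0.23 higher (adjusted p = 0.111, edgeR). Mertk differed by 0.10 ± 0.18, Tyro3 by -0.17 ± 0.15 and Mfge8 by -0.17 ± 0.23. For Axl and Mertk the outcome depended on the libraries kept. Without libraries A and C, Axl (1.82-fold, adjusted p = 0.000592, edgeR) and Mertk (1.46-fold, adjusted p = 0.00435, edgeR) were also called higher at 18 months. Gas6 then went to 0.27 (adjusted p = 0.0965, edgeR) and Mfge8 to 0.31 (adjusted p = 0.286, edgeR). Without libraries C and F of the 18-month MCAO group, Axl had 0.42 (adjusted p = 0.255, edgeR) and Mertk 0.11 (adjusted p = 0.806, edgeR), and neither was called. Marker genes of other cells were also called higher at 18 than at 3 months after MCAO. They were 4 of 8 for monocytes and infiltrating macrophages (median log2 difference 1.03) and 2 of 5 for neutrophils (median 1.15). Endothelial cells had 3 of 8 (median 0.45), oligodendrocytes 5 of 8 (median 0.57) and erythrocytes 4 of 4 (median 3.25). Microglia had 2 of 8 (median 0.13), and astrocytes, oligodendrocyte precursors and fibroblasts had 1 each. In the other direction, 3 of 10 neuronal markers were called lower (median -0.18). Their part in the Pros1 difference was not tested. Without libraries C and F of the 18-month MCAO group no erythrocyte or neutrophil marker was called, and Pros1 was 1.41-fold higher (adjusted p = 0.0186, edgeR). Called higher were then 3 of 8 markers of monocytes and macrophages, 2 of 8 of endothelial cells and 5 of 8 of oligodendrocytes, and 1 of 10 neuronal markers was called lower. Without libraries A and C of the 3-month MCAO group, 5 of 10 neuronal markers were called lower. Called higher in that fit were 4 of 8 markers of monocytes and macrophages, 5 of 8 of endothelial cells and 5 of 8 of oligodendrocytes. So were 3 of 8 of microglia, 3 of 5 of neutrophils and 2 of 4 of erythrocytes, but no astrocyte marker. The part of these cells in the added Axl and Mertk calls was not tested.

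The MCAO effect itself was compared between the ages with an interaction term, and none of the 6 was called in edgeR, where 0.0822% of all genes were. Gas6 alone had an unadjusted p under 0.05, with a log2 difference of effects of 0.68 ± 0.32 (adjusted p = 0.453, edgeR), and 0.38 without libraries A and C (adjusted p = 0.227, edgeR). For Pros1 the difference of effects was 0.18 ± 0.17, for Axl 0.07 ± 0.27, for Mertk -0.23 ± 0.26, for Tyro3 -0.03 ± 0.21 and for Mfge8 -0.15 ± 0.32. With libraries A and C left out these became 0.28 for Pros1, 0.41 for Axl, 0.21 for Mertk, 0.08 for Tyro3 and 0.33 for Mfge8, with adjusted p-values of 0.428 to 0.919 in edgeR. DESeq2 called none. The median of the 6 was 0.02, against 0.01 over all genes. The age difference of Pros1 after MCAO was thus not shown to be a different response to MCAO.

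In the order of group means, Pros1 rose from controls of 3 months through controls of 18 months and MCAO at 3 months to MCAO at 18 months, and the last 3 of these groups did not overlap with each other. Axl and Mertk had the same order of means, but neighbouring groups overlapped throughout. Tyro3 had the reverse order, also with overlap between every pair of neighbours. Mfge8 had the order of Tyro3, and for Gas6 the lowest mean was MCAO at 3 months and the highest MCAO at 18 months, with overlap between all neighbours.

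Ratios of 2 genes within a library do not depend on how libraries are scaled, and are given as a description. They are ratios of counts of 3′ ends, so their shift between groups is read and not their level. The Gas6 to Pros1 ratio shifted towards Pros1 with MCAO: it was 8.88 to 10.97 in controls of 3 months and 6.12 to 7.89 in controls of 18 months, but 0.345 to 2.78 after MCAO at 3 months and 1.41 to 2.01 after MCAO at 18 months. The control and MCAO libraries did not overlap at either age, and the control ages did not overlap with each other. The geometric means were 9.87, 6.98, 1.48 and 1.66 in that order of groups, with the value of 0.345 in library A. The Axl to Mertk ratio had geometric means of 0.175, 0.190, 0.243 and 0.314, and its ranges overlapped. It was 0.148 to 0.247 in controls of 3 months, 0.155 to 0.230 in controls of 18 months, 0.197 to 0.320 after MCAO at 3 months and 0.187 to 0.527 after MCAO at 18 months. On the log2 scale with 1 count added, the group means ran from -2.52 to -1.67 for Axl to Mertk and from 3.30 to 0.57 for Gas6 to Pros1.

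**Figure D3:**
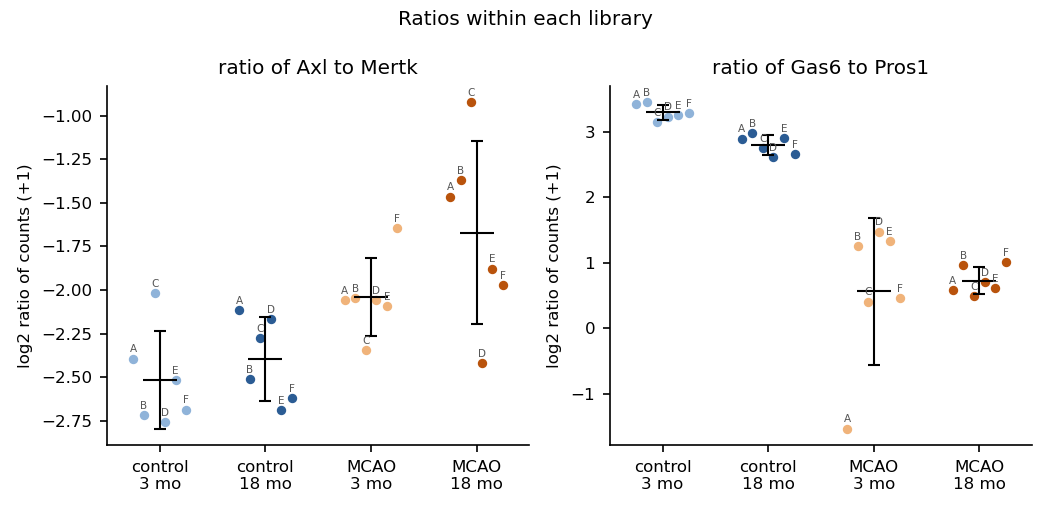
Log2 ratio of counts, with 1 count added to each gene (vertical axis), of Axl to Mertk (left) and Gas6 to Pros1 (right) in each library, by group (horizontal axis; mo, months). Bars are the mean and SD of 6 animals. All MCAO libraries lie below all control libraries for Gas6 to Pros1, with library A of MCAO at 3 months lowest at -1.54.

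The genes around the TAM system were taken from 9 lists chosen with earlier results of these data known. In what follows, pairs of log2 fold changes are MCAO against control at 3 and then 18 months, and the share of all genes called higher or lower is the background given above. Of 9 tested receptors of phosphatidylserine other than the TAM family, 5 were called higher and none lower at 3 months, and 7 higher and 1 lower at 18 months. The list's median was 1.38 and 1.40, against -0.04 and -0.03 over all genes. Itgb5, the integrin subunit that takes up cargo bridged by Mfge8, rose from 18.3 ± 1.27 to 79.6 ± 32.1 CPM at 3 months and from 25.0 ± 5.40 to 82.9 ± 12.4 CPM at 18 months (2.11 ± 0.19 and 1.74 ± 0.19, adjusted p = 2.49e-09 and 2.75e-08, edgeR). Havcr2 (TIM-3) rose by 2.81 ± 0.26 and 3.39 ± 0.26, and the scavenger receptor Stab1 by 3.37 ± 0.33 and 3.84 ± 0.34. Adgrb1 (BAI1), known from neurons and astrocytes as well as phagocytes, fell at 18 months (-0.62 ± 0.18, adjusted p = 0.00761, edgeR) and had -0.33 ± 0.18 at 3 months (adjusted p = 0.159, edgeR).

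Of 9 other molecules tested that bridge to or coat dying cells, 6 were called higher and 2 lower at 3 months and 7 higher and 2 lower at 18 months, with medians of 3.12 and 2.76. Edil3, a relative of Mfge8 that also binds integrins, fell at both ages (-0.60 ± 0.15 and -0.67 ± 0.15). The complement components C1qa and C1qc rose by 3.12 ± 0.34 and 2.76 ± 0.20 at 3 months and by 2.76 ± 0.34 and 2.78 ± 0.20 at 18 months. Thbs1 (thrombospondin 1) rose from 0.554 ± 0.298 to 10.7 ± 4.92 CPM at 3 months and from 0.533 ± 0.386 to 44.1 ± 12.7 CPM at 18 months, and after MCAO it was higher at 18 than at 3 months by 2.05 ± 0.26 (adjusted p = 1.41e-05, edgeR). The MCAO effect was called as different between the ages for none of these 9 genes, Thbs1 among them. Lgals3 (galectin 3), which has been described as a ligand of Mertk, rose from 0.256 ± 0.336 to 58.4 ± 31.3 CPM at 3 months and from 1.44 ± 1.00 to 96.6 ± 27.8 CPM at 18 months.

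Protein S acts as an anticoagulant with partners on the vessel wall, and all 3 tested partners rose at both ages, where Proc had no count in any library and F5 did not pass the filter. Procr, the endothelial receptor of protein C, rose by 3.45 ± 0.36 and 3.59 ± 0.35, Thbd (thrombomodulin) by 1.34 ± 0.17 and 1.47 ± 0.17, and Tfpi, the tissue factor inhibitor for which protein S is a cofactor, by 1.60 ± 0.24 and 1.79 ± 0.23. Endothelial markers moved with them. Of 8 tested, 6 were called higher at 3 months and 7 at 18 months, with summed levels of 237 to 323 CPM in controls and 367 to 781 CPM after MCAO. The part of the vessel cells in the Pros1, Procr, Thbd and Tfpi levels was not tested.

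Gas6 and protein S need vitamin K-dependent carboxylation to bind phosphatidylserine. Of 6 tested genes of that cycle, 1 was called higher and 1 lower at 3 months, and 4 higher and none lower at 18 months, with medians of 0.45 and 0.69. Vkorc1, which regenerates reduced vitamin K, rose by 1.11 ± 0.21 and 0.70 ± 0.21. Ggcx, the carboxylase itself, rose at 18 months (0.67 ± 0.25, adjusted p = 0.0290, edgeR) and had 0.33 ± 0.24 at 3 months. Vkorc1l1 fell at 3 months (-0.65 ± 0.26, adjusted p = 0.0475, edgeR) and had -0.12 ± 0.25 at 18 months. Aifm2 and Calu (calumenin) rose at 18 months, by 1.03 ± 0.25 and 0.95 ± 0.20.

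Of 12 tested genes of TAM signalling, feedback and shedding, 5 were called higher at 3 months and 7 at 18 months, and none lower, with medians of 0.45 and 0.90. The adaptor Grb2 (-0.18 ± 0.08 and -0.09 ± 0.08) and the kinase subunits Pik3r1 (-0.02 ± 0.12 and -0.09 ± 0.12) and Pik3ca (-0.33 ± 0.15 and -0.31 ± 0.15) did not pass. Ifnar2, a chain of the interferon receptor through which TAM receptors signal feedback, rose by 1.12 ± 0.16 and 1.55 ± 0.16. Adam17, the protease that sheds Mertk and Axl from the cell surface, rose by 1.27 ± 0.15 and 1.74 ± 0.15.

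The machinery of engulfment moved in both directions, with 3 of 11 tested genes called higher and 3 lower at 3 months, 4 higher and 2 lower at 18 months, and medians of 0.14 and 0.20. Vav1 (3.21 ± 0.35 and 3.25 ± 0.34), an exchange factor of blood cells, Rhog (1.75 ± 0.25 and 1.31 ± 0.24) and Dock1 (0.61 ± 0.20 and 1.05 ± 0.20) rose. Elmo2 (-0.26 ± 0.10 and -0.28 ± 0.10) fell at both ages, and Elmo1 fell at 3 months (-0.91 ± 0.35, adjusted p = 0.0427, edgeR) and had -0.68 ± 0.34 at 18 months. Of 8 tested genes of lipid efflux in engulfing cells, 3 were called higher at 3 months and 2 at 18 months, with medians of 0.32 and 0.33. They include the cholesterol exporter Abca1 (1.48 ± 0.18 and 2.17 ± 0.18) and Nr1h3 (0.88 ± 0.26 and 1.39 ± 0.26), the liver X receptor of macrophages, at both ages.

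On the side of the dying cell, 3 of 11 tested genes of phosphatidylserine exposure were called higher and 2 lower at 3 months, and 3 higher and none lower at 18 months, with medians of 0.19 and 0.04. The scramblase Ano6 (0.93 ± 0.15 and 1.51 ± 0.15) and the flippase Atp11a (0.42 ± 0.13 and 0.53 ± 0.13) rose, and the scramblase Xkr8 (-0.17 ± 0.31 and 0.67 ± 0.30) did not pass. Of the 3 signals against engulfment, Cd24a rose (1.55 ± 0.35 and 3.21 ± 0.37), Sirpa fell at 3 months (-0.42 ± 0.12, adjusted p = 0.00919, edgeR) and had 0.06 ± 0.12 at 18 months, and Cd47 fell at 18 months (-0.32 ± 0.09, adjusted p = 0.00499, edgeR) and had -0.02 ± 0.09 at 3 months.

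Some of these calls rested on the libraries that stand apart, in a comparison chosen after the data were seen. Without libraries A and C of the 3-month MCAO group, the calls at 3 months were lost, among the genes named above, for Vkorc1l1 (-0.28, adjusted p = 0.277, edgeR), Elmo1 (-0.48, adjusted p = 0.0852, edgeR), Elmo2 (-0.13, adjusted p = 0.283, edgeR), Nr1h3 (0.62, adjusted p = 0.0911, edgeR) and Atp11a (0.38, adjusted p = 0.0508, edgeR), and Calu was called higher (0.52, adjusted p = 0.0294, edgeR). No gene of engulfment or phosphatidylserine exposure was then called lower at 3 months, and 4 and 2 of them were called higher. Of the genes of lipid efflux, 1 was then called higher at 3 months and 5 at 18 months, and 2 genes of phosphatidylserine exposure were called lower at 18 months. The median of phosphatidylserine receptors at 3 months was then 0.83, with 4 called higher, and that of other bridging molecules and opsonins 2.51, with 7 higher and 2 lower. At 18 months Elmo1 was then called lower, with a value that stayed at -0.68 (adjusted p = 0.00348, edgeR), and so was Pik3ca (-0.31, adjusted p = 0.0119, edgeR). Without libraries C and F of the 18-month MCAO group, the calls at 18 months were lost for Adgrb1 (-0.53, adjusted p = 0.0506, edgeR) and Elmo2 (-0.22, adjusted p = 0.121, edgeR). The 3-month calls of Vkorc1l1 (adjusted p = 0.0548, edgeR) and Elmo1 (adjusted p = 0.0522, edgeR) were then also lost, with values that stayed at -0.65 and -0.91. Libraries C and F are not in the 3-month comparison and reach it only through the shared fit and adjustment. All 3 partners of protein S stayed called at each age in both settings.

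**Figure D4:**
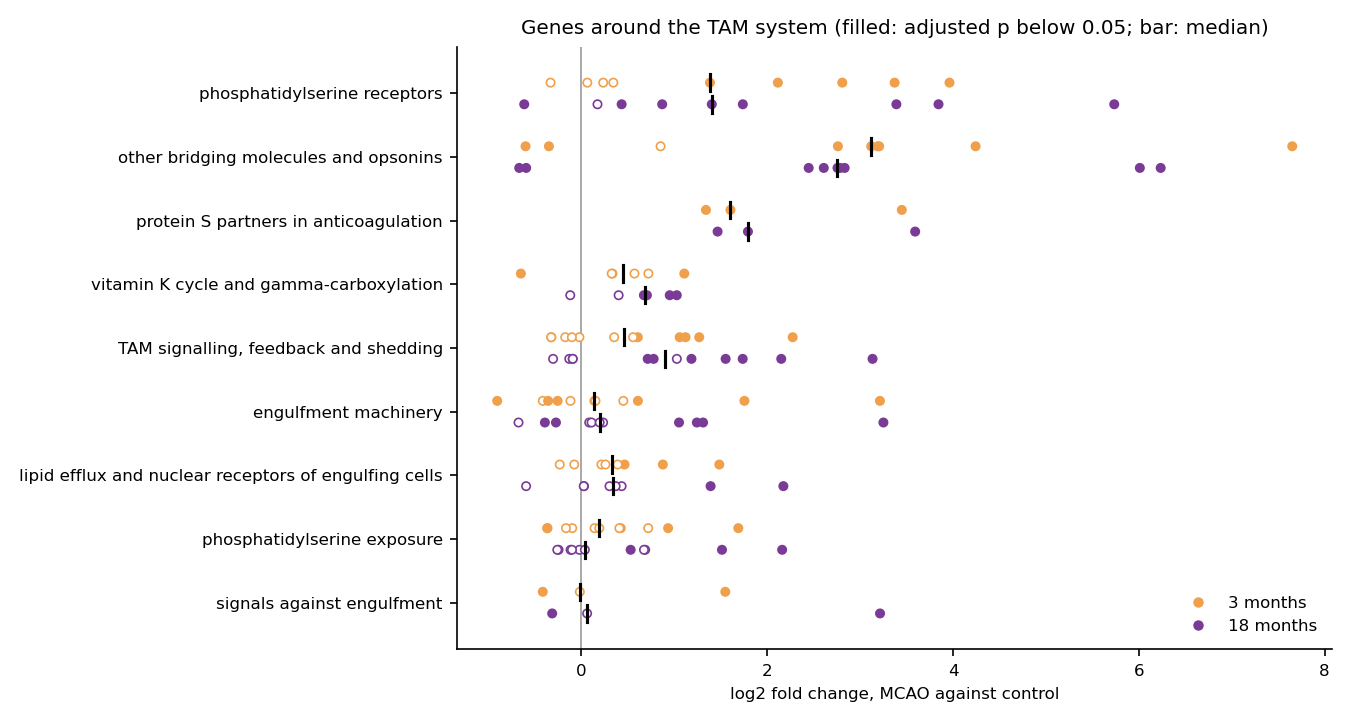
Log2 fold change of MCAO against control (horizontal axis) of each tested gene of 9 lists around the TAM system (vertical axis), at 3 months (orange) and 18 months (purple). Filled points passed an adjusted p of 0.05 in edgeR, and black bars are list medians. The medians of other bridging molecules and opsonins, 3.12 and 2.76, are the highest of the lists.

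Markers of the cells known to carry TAM genes also differed between control and MCAO, not all in 1 direction. All 8 microglial markers were called higher at each age, with summed levels of 284 to 390.1 CPM in controls, 692 to 1709 CPM after MCAO at 3 months and 867 to 1109 CPM at 18 months. At 3 months 7 of the 8 were called higher without libraries A and C. All 8 tested markers of monocytes and infiltrating macrophages were called higher at each age, from 32.5 to 79.6 CPM in controls to 222 to 687 CPM after MCAO at 3 months and 445 to 804 CPM at 18 months. Astrocyte markers were split, with 3 of 8 called higher and 2 lower at each age, and summed levels of 4732 to 6149 CPM in controls and 3211 to 4440.3 CPM after MCAO. Of 7 fibroblast and meningeal markers, 5 were called higher at each age, with 34.3 to 86.9 CPM in controls and 170 to 1472 CPM after MCAO. None of 6 T cell markers passed the filter. The part of these cells in the levels of the 6 genes was not tested.

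Genes whose levels followed a member most closely from animal to animal were found from deviations of log2 CPM from the group mean over 24 libraries, which share depth and tissue composition, and are given as Pearson's r without a test. Pros1 was followed by Lbr (r = 0.90), Hrct1 (0.86), AI662270 (0.81), Msn (0.80) and H2-Eb1 (0.79), with r from 0.75 to 0.92 without libraries A and C. Axl was followed by Pla2g15 (0.92), Edf1 (0.88), Farsb (0.88), Cdc42ep1 (0.87) and Cotl1 (0.86), with r from 0.78 to 0.87 without them. Tyro3 was followed by Marf1 (0.88), Mapk8ip3 (0.88), Men1 (0.88), Prkag2 (0.87) and Tmem121 (0.87), with r from 0.86 to 0.91 without them, and Mfge8 by Lsm6 (0.92), Iqsec2 (0.92), Atp9a (0.91), Rab5c (0.91) and Atp6ap1 (0.90), with r from 0.79 to 0.88. For the other 2 genes the likeness rested on libraries A and C. Gas6 was followed by Ndrg4 (0.93), Cbx7 (0.93), Cnot8 (0.93), Atp8b2 (0.92) and Cox17 (0.91), which fell to 0.23 to 0.52 without them, and Mertk by Tor1b (0.84), Ctsd (0.83), Sptbn1 (0.83), Itpr2 (0.83) and Serpine2 (0.82), which fell to 0.39 to 0.57. Of these lists of 5, no gene was in more than 1. Between members, Tyro3 and Mfge8 had r = 0.70, and 0.73 without libraries A and C, whereas Mertk and Gas6 went from -0.62 to 0.09 and Axl and Mertk from 0.49 to -0.04.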

How the data were processed

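Cortex of 24 mice was measured with QuantSeq 3′ libraries, which prime at the poly(A) tail, from 400 ng of total RNA per the labels' protocols. The values used are the counts per gene that the authors deposited. The submitters' processing notes name Trimmomatic, HTSeq, DESeq2 and the build GRCm38, without versions. The sources used here do not give the aligner, the annotation or the strand setting. The deposited normalized tables were not used. Reads outside genes (25.7% to 34.5%), ambiguous reads and 92 spike-in transcripts stayed out of library sizes and tests, and 46488 of 46983 identifiers matched a symbol.

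All 24 libraries entered 1 model with 4 group means in edgeR 4.0.16 (limma 3.58.1, R 4.3.3), with TMM scaling, the default filter (a minimum of 10 counts), robust dispersions and the two-sided quasi-likelihood F test. The filter kept 14599 genes and left out 32384, and the biological coefficient of variation was 0.207. DESeq2 1.42.0 was an alternative. The tests were also tried on made-up counts with known changes, whose spread was taken from the control libraries only. Those counts do not hold the spread of the MCAO groups. The 60 pairs of libraries within groups all differed by more than sampling noise (chi-square per degree of freedom 3.38 to 76.1). The labels name each library a biological replicate. Counts carry no molecular identifiers, so repeat reads of the same molecule cannot be told apart, and counting error is only a lower bound on their spread.

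Members, lists and the libraries left out were chosen with earlier results of these data known. All 6 genes are named. Of each pathway list, the first 3 tested genes as listed and up to 3 with the smallest p in either MCAO comparison could be named, and for each member the 5 genes with the highest r, computed from log2 CPM with a prior count of 2. Predicted genes were left out. A few genes the rule allows are not reported here. Sequences are from RefSeq, GRCm38.p6, and all 6 genes matched. Alternatives were RLE scaling, scaling by totals or by spike-ins, no filter, no robust estimation, DESeq2, a replicate block, only the groups compared, and each library or the named pairs of libraries left out.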

Additional observations from a re-analysis of the deposited data

Results flagged for a closer look

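Within groups of 6, 3 of 32 sets of values had a library whose gap to the nearest other exceeded the 95% critical value of Dixon's test, where chance gives about 1 in 20. Tyro3 in library A of the 18-month controls was 275 CPM, against 481 CPM for the nearest other and 595 CPM for the highest. That library also had the highest summed neuronal (11737 CPM) and astrocyte (6149 CPM) marker levels of all controls. Pros1 in library C of MCAO at 18 months was 210.4 CPM, against 167 CPM for the nearest other, in a library with 388 CPM of erythrocyte and 1472 CPM of fibroblast and meningeal markers. The log2 ratio of Gas6 to Pros1 in library A of MCAO at 3 months was -1.54, against 0.41 for the nearest other and 1.48 for the highest. What sets these libraries apart was not tested.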

How the results depend on the processing

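Over 1014 recomputed log2 fold changes of the 6 genes, the alternatives ended 9 calls, all of Mertk, made 15 calls, and turned the sign of 28 values, none of which was called. Axl, Tyro3 and Pros1 kept their MCAO calls in all 34 alternatives at both ages. For Tyro3 the highest adjusted p was 0.0482 at 3 months and 0.0464 at 18 months, both in edgeR. The number of the 6 genes called kept within 1.5 times its main value except between the ages after MCAO, where it was 1 and became 2 with scaling by totals, 2 with spike-in scaling, 2 with the replicate block, 3 without libraries A and C of the 3-month MCAO group, and 1 to 3 with each library left out in turn. The 3 came without library A of MCAO at 3 months (Axl 0.72 and Gas6 0.36 besides Pros1) and a count of 2 without library D of MCAO at 18 months (Axl 0.62). Same-lettered libraries had r over 0.1 in 9 of 36 pairs, from -0.30 to 0.31. Between the 2 MCAO groups all 6 letters had a positive r and 4 were over 0.1, short of the rule that every pair must be, so the letters were not taken as pairs. The replicate block added only the Axl call between the MCAO ages (0.55, adjusted p = 0.0191, edgeR).

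Scaling by spike-ins moved the median of all genes to -0.49 at 3 months and -0.32 at 18 months for MCAO, and to 0.23 between the ages after MCAO. On that scale Mertk had 0.22 and 0.23 after MCAO and was not called, and Gas6 (-0.75, 3 months) and Mfge8 (-0.66 at both ages) were called lower. Relative to the median of all genes, Mertk was 0.71 and 0.55 higher, Gas6 -0.25 and 0.39, and Mfge8 -0.17 and -0.34.

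Signs turned in values that were not called. For Mfge8 between control ages the value was -0.02 and became 0.0043 with totals, 0.0582 with spike-ins and 0.0123 with the block, and -0.107 to 0.0918 with each library left out. Between MCAO ages Mfge8 became 0.0635 with spike-ins, 0.31 without libraries A and C, and -0.29 to 0.11 with each library left out, from a main value of -0.17, and Mertk ran from -0.0094 to 0.29, from 0.10. For the difference of MCAO effects, where the main values were 0.07 for Axl, -0.23 for Mertk, -0.03 for Tyro3 and -0.15 for Mfge8, Axl became -0.0279 without libraries C and F and ran from -0.0209 to 0.27 with each library left out. Mertk became 0.0124 with spike-ins and 0.21 without A and C. Tyro3 became 0.0670 with spike-ins, 0.0774 without A and C and 0.0622 without C and F, and ran from -0.164 to 0.0398. Mfge8 became 0.0054 with spike-ins and 0.33 without A and C, and ran from -0.27 to 0.13. The causes were not tested. Adding 0.5 counts in place of 1 moved no ratio by more than its SD. Axl had as few as 51 counts in a library, the fewest of the 6 genes.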
